A study of Mus musculus with 8 samples.

Results

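Smooth muscle and myofibroblast contractile genes code for the actin, myosin and regulatory proteins with which vascular smooth muscle cells and activated fibroblasts pull on their surroundings. In these cells, myosin filaments slide along actin filaments once myosin light chain kinase, activated by calcium and calmodulin, has phosphorylated the regulatory light chain, while tropomyosin, calponin and caldesmon sit on the actin filament and tune its contact with myosin. Many of these genes are switched on by serum response factor (SRF), which binds a short DNA element called the CArG box and works with myocardin or the myocardin-related factors. Cancer-associated fibroblasts that carry this program are called myofibroblastic, and alpha smooth muscle actin, the product of Acta2, is their most used marker.

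Here 10 such genes were followed, chosen by symbol from 55487 gene rows: Acta2, Tpm1, Tpm2, Tagln, Cnn1, Cnn2, Cald1, Myh11, Myl9 and Mylk. All 10 were found in the count table. RNA came from the stromal vascular fraction of subcutaneous tumors grown from MC38 cells, a mouse colon cancer line marked with green fluorescent protein (GFP), in Bmal1+/+ and Bmal1-/- host mice with 4 samples each. The tumors were digested, GFP-marked cancer cells were gated out by sorting, and the remaining mixture was sequenced without separating its cell types. Hosts of both genotypes were bred from Bmal1+/- founders, and the deletion was in the host and not in the implanted cancer cells, which all samples shared. The age of the mice and the sampling hour were not given in the sources used here. Because a whole mixture was sequenced, fewer cells of a type and less RNA per cell cannot be told apart in any value below.

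Library totals ranged from 14783346 to 18449143 fragments in Bmal1+/+ and from 14054825 to 15624815 in Bmal1-/- samples, and the floor of 3 counts was worth 0.163 to 0.213 CPM, the unit of counts after scaling by library size. Arntl, the gene for BMAL1 (chr7:113207465-113314126, GRCm38), was higher under the label of its deletion: it stood at 0.958 to 2.70 CPM in Bmal1+/+ and at 30.1 to 35 CPM in the other libraries. Those other libraries are therefore called the libraries labelled Bmal1-/- or, for short, the labelled group. Counts per gene do not show which exons were read, so reads of an intact and of a deleted allele cannot be told apart. X-inactivation and Y-linked transcripts separated the labels as well: Xist stood at 842 to 1090 CPM in Bmal1+/+ and at 0.142 to 0.748 CPM in the others, and 4 Y-linked genes summed to 0 and to between 121 and 144 CPM, so host sex and label cannot be told apart. The tissue label says tumor, yet 10 hepatocyte markers took 10.2 to 11% of all counts in Bmal1+/+ and 5.97 to 6.68% in the libraries labelled Bmal1-/-. By contrast, 35 markers of fibroblasts, pericytes, endothelium and macrophages took 0.110 to 0.127% and 0.0633 to 0.0836%. The part of these differences in the contractile gene results was not tested. Bmal1+/+ is likewise used only as the label of its libraries, since Arntl was low in all 4 of them. Directions are those of the labelled group against Bmal1+/+. Whether the labels were exchanged, or a deleted allele still gave reads, was not tested. If the labels were exchanged, every direction and fold given here would turn round.

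RefSeq promoter windows of GRCm38, from 250 bases before to 50 after a transcript start, were at hand for 8 of the 10 genes in 9 windows; Tagln and Myh11 had none. They were searched on both strands for the CArG box (CC, 6 bases of A or T, then GG), for the E-box CACGTG through which BMAL1 and CLOCK act, and for the TATA box TATAAA. A CArG box stood in the windows of 2 genes, Myl9 and Cnn2, against 1.63% of 32851 windows of the same length. The E-box was in the windows of 0 of the 8 genes, against 7.15% of all windows. TATAAA was found in 1 of the 8, the second Cald1 window, against 13.6% of all. A looser form of the CArG box with 1 C or G among the 6 middle bases, searched after the first results were seen, occurred once more in Myl9 and at 2 places in Acta2, while 8.5% of all windows held at least 1 and 0.679% held 2 or more. The stretches below lie outside annotated exons of their gene except for the Acta2 matches, which fall in its annotated first exon. They run 5′ to 3′ on the strand of the gene, with matches in capitals, and Tpm2 is shown as the gene with the largest tested fold change, whose window held neither form.

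Myl9, chr2:156775214-156775419, plus strand, strict match at -161 and looser match at -99: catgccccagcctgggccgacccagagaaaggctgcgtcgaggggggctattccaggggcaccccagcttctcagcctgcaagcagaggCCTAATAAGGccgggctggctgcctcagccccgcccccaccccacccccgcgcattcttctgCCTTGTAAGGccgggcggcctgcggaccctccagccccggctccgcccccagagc
Cnn2, chr10:79988350-79988583, plus strand, strict match at -56: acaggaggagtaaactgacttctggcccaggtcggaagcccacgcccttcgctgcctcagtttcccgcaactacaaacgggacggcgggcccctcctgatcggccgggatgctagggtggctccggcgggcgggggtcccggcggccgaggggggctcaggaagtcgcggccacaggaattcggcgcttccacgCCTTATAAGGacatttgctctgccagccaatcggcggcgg
Acta2, chr19:34255438-34255467, minus strand, looser match at -84: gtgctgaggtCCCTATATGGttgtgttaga
Acta2, chr19:34255388-34255417, minus strand, looser match at -34: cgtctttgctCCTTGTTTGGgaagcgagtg
Tpm2, chr4:43523596-43523700, minus strand, no match: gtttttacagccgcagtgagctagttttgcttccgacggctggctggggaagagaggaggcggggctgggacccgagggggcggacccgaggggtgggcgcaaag

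Tpm2, Myh11 and Cnn2 were lower in the libraries labelled Bmal1-/-, by 5.15-fold, 4.11-fold and 1.71-fold, and 0 genes were higher under TMM scaling, whereas scaling to stromal markers took away the call of Cnn2 and called 3 others higher. Of the 9 genes with enough counts to be tested, 3 had an adjusted p below 0.05 and were lower (quasi-likelihood test of edgeR, Benjamini-Hochberg over 14353 genes), 0 were higher and 6 did not pass. At an unadjusted p below 0.05 in edgeR's test there were 5 lower, Acta2 and Tagln included, and 0 higher. The share of all genes at that unadjusted cut was not counted, so these 5 have no background beside them. DESeq2 and limma-voom likewise called 0 of the 9 higher, where they called 2253 and 2156 of all 14353 genes higher. They called 4 and 3 of the 9 lower, and 2579 and 2395 of all genes. At an adjusted p below 0.05 in edgeR's test, 16.2% of all tested genes were called lower and 14.9% higher. Under the study's own criterion, an absolute log2 fold change above 1 with an unadjusted p below 0.05, the 3 lower genes were Acta2, Tpm2 and Myh11 and 0 were higher, against 8.71% and 5.41% of all tested genes. The median log2 fold change of the 9 was -0.53, beside 0.02 for all tested genes; 6 lay below 0 and 3 above. The groups of 4 libraries did not overlap for 3 of the 9, all lower, against 16.8% of all tested genes not overlapping with the labelled group lower and 16.7% with it higher.

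**Figure D1:**
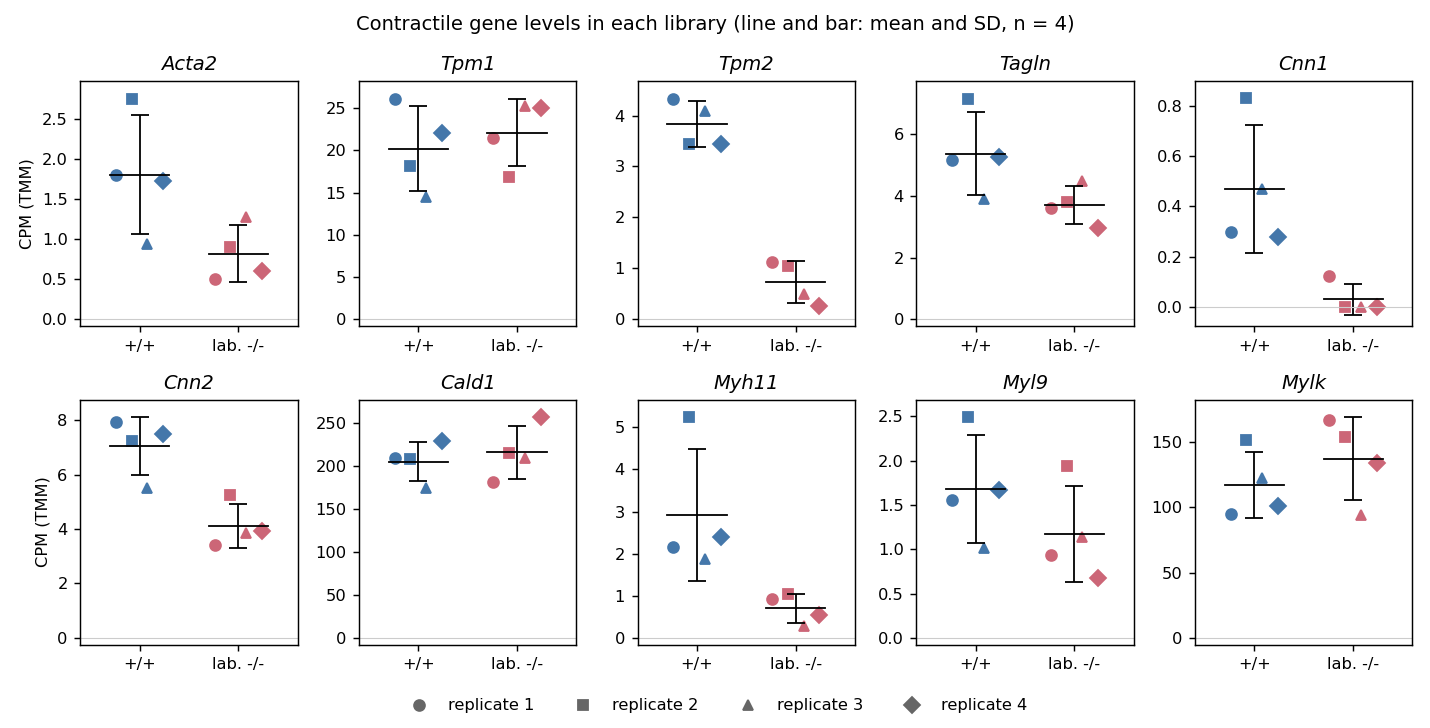
CPM after TMM normalization of the 10 contractile genes, 1 panel per gene, with a marker for each replicate (n = 4 per label), a line at the mean and a bar for the SD; the vertical scale differs between panels. The groups are apart for Tpm2, Cnn1, Cnn2 and Myh11, and overlap for the other 6.

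Acta2 (ENSMUSG00000035783, chr19:34241090-34255590) codes for alpha smooth muscle actin, the thin filament actin of smooth muscle and myofibroblasts. Its counts were 30, 43, 14 and 31 in Bmal1+/+ replicates 1 to 4 and 8, 13, 18 and 9 in the libraries labelled Bmal1-/-, or 1.8, 2.75, 0.939 and 1.72 CPM against 0.499, 0.899, 1.28 and 0.609 CPM. Bmal1+/+ replicate 3 fell below replicate 3 of the labelled group and just above its replicate 2, and every other Bmal1+/+ library was above all labelled ones. Mean levels were 1.8 ± 0.741 and 0.821 ± 0.349 CPM (SD, n = 4), and the log2 fold change of -1.14 (SE 0.39) met the study's criterion but missed the adjusted threshold in edgeR's test (adjusted p = 0.051, unadjusted p = 0.016). Without Bmal1+/+ replicate 3 the adjusted p was 0.025, without replicate 3 labelled Bmal1-/- it was 0.033, and over all alternatives it ranged from 0.021 to 0.40. Counting error alone would give a coefficient of variation of 18.4% in Bmal1+/+, where 41.1% was measured, and of 28.9% in the labelled group, where 42.4% was measured. The most used myofibroblast marker was thus read from at most 43 fragments in any library.

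The tropomyosins, coiled rods laid along the actin filament, parted. Tpm2 (ENSMUSG00000028464, chr4:43514711-43523765) codes for beta-tropomyosin, and its counts were 72, 54, 61 and 62 in Bmal1+/+ and 18, 15, 7 and 4 in the labelled group. In CPM these were 4.33, 3.45, 4.09 and 3.45 against 1.12, 1.04, 0.497 and 0.271. Every Bmal1+/+ library was above every labelled library, with a wide gap between them. The means were 3.83 ± 0.449 and 0.732 ± 0.413 CPM (SD, n = 4), and the log2 fold change was -2.36 (SE 0.36, adjusted p = 0.0011 in edgeR's test), the largest of the 9. It passed in all 18 settings in which Tpm2 was tested, between -2.65 and -1.67.

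Tpm1 (ENSMUSG00000032366, chr9:67022590-67049406), which codes for alpha-tropomyosin and makes muscle and non-muscle forms, held 435, 284, 216 and 395 counts in Bmal1+/+ and 345, 243, 354 and 369 in the labelled group. The labelled range of 16.8 to 25.2 CPM lay inside that of Bmal1+/+, 14.5 to 26.1 CPM. Its log2 fold change was 0.13 (SE 0.19, adjusted p = 0.64 in edgeR's test). The split between Tpm1 and Tpm2 did not rest on the scaling of libraries: of the counts on Tpm1, Tpm2, Tpm3 and Tpm4 together, Tpm2 took 3.02 to 4.03% in Bmal1+/+ and 0.263 to 1.32% in the labelled group, while Tpm1 took 14.3 to 21.4% and 21.4 to 26.6%. The Tpm2 shares of the groups were apart, and the Tpm1 shares met at their edge.

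Tagln, Cnn1 and Cnn2 code for calponin-related proteins that bind actin. Cnn2 (ENSMUSG00000004665, chr10:79988584-79996062) codes for calponin 2, found in smooth muscle and many other cells, and was measured at 132, 113, 82 and 135 counts in Bmal1+/+ and 55, 76, 54 and 58 in the labelled group. Levels of 7.93, 7.22, 5.50 and 7.5 CPM stood against 3.43, 5.25, 3.84 and 3.93 CPM. The lowest Bmal1+/+ library, replicate 3, and the highest labelled library, replicate 2, lay next to each other without crossing. The means were 7.04 ± 1.07 and 4.11 ± 0.792 CPM (SD, n = 4), with a log2 fold change of -0.78 (SE 0.19, adjusted p = 0.011 in edgeR's test).

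Cnn1 (ENSMUSG00000001349, chr9:22099216-22109630) codes for calponin 1, a late marker of differentiated smooth muscle, and was the rarest of the 10. Bmal1+/+ libraries held 5, 13, 7 and 5 counts, and the labelled libraries 2, 0, 0 and 0. Every Bmal1+/+ library was above the floor of 3 counts and every labelled library below it. Too few counts kept Cnn1 out of the test. Summed over libraries, 30 fragments against 2 gave a ratio of rates of 0.0747 (exact 95% counting interval 0.00865 to 0.294, which covers counting error only). With no filter on low counts edgeR's adjusted p was 0.024, and 7.33% of the 28004 genes then tested were called lower.

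Tagln (ENSMUSG00000032085, chr9:45929619-45936058) codes for transgelin, an early and abundant smooth muscle protein. Its counts were 86, 112, 58 and 95 in Bmal1+/+ and 58, 55, 63 and 44 in the labelled group, or 5.37 ± 1.35 and 3.72 ± 0.616 CPM (SD, n = 4). Only Bmal1+/+ replicate 3, at 3.89 CPM, fell below the highest labelled library, replicate 3 at 4.48 CPM. The log2 fold change of -0.53 (SE 0.22) did not pass edgeR's test (adjusted p = 0.091), and without Bmal1+/+ replicate 3 the adjusted p was 0.046. An antisense gene, Gm48529, lies over 62.4% of the exon bases of Tagln. It held at most 60 counts. Pcsk7, a protein-coding gene on the opposite strand, shares 5.4% of those bases and held at most 499 counts over its whole length. With the strand setting of the counting not stated, reads of Tagln and of these genes cannot be told apart where they overlap.

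Caldesmon, the product of Cald1 (ENSMUSG00000029761, chr6:34598500-34775473), is an actin-binding inhibitor of myosin with muscle and non-muscle forms. It was the most counted of the 10 genes, at 3483, 3258, 2597 and 4115 fragments in Bmal1+/+ and 2925, 3104, 2939 and 3791 in the labelled group. These gave 205 ± 22.7 and 216 ± 30.8 CPM (SD, n = 4), with ranges that overlapped. The log2 fold change was 0.07 (SE 0.13, adjusted p = 0.72 in edgeR's test).

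Myosin members also parted. Myh11 (ENSMUSG00000018830, chr16:14194535-14291372) codes for the smooth muscle myosin heavy chain, the most restricted marker of smooth muscle among the 10. Counts were 36, 82, 28 and 43 in Bmal1+/+ and 15, 15, 4 and 8 in the labelled group, that is 2.16, 5.24, 1.88 and 2.39 CPM against 0.935, 1.04, 0.284 and 0.542 CPM. Bmal1+/+ replicate 2 stood far above its group, and the lowest Bmal1+/+ library was still above the highest labelled one. The means were 2.92 ± 1.56 and 0.699 ± 0.350 CPM (SD, n = 4), with a log2 fold change of -2.04 (SE 0.45, adjusted p = 0.0078 in edgeR's test). Leaving out any single library kept Myh11 lower, at between -2.28 and -1.61 with adjusted p at or below 0.019.

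Myl9 (ENSMUSG00000067818, chr2:156775420-156781658) codes for the regulatory light chain of smooth muscle myosin, the protein that Mylk phosphorylates. It held 26, 39, 15 and 30 counts in Bmal1+/+ and 15, 28, 16 and 10 in the labelled group. Replicate 2 was the highest of both groups, at 2.49 and 1.94 CPM, and the groups overlapped. The log2 fold change was -0.52 (SE 0.38, adjusted p = 0.32 in edgeR's test), with an approximate 95% interval from -1.26 to 0.21. The strict CArG box printed above for Myl9 and Cnn2 thus stood before 1 gene that was lower and 1 that did not pass, which is a description of 2 windows only.

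Mylk (ENSMUSG00000022836, chr16:34745210-35002420) codes for myosin light chain kinase, in a short smooth muscle form and a long form that endothelial and other cells make, and gene counts do not separate the forms. Its 1582, 2364, 1823 and 1815 counts in Bmal1+/+ and 2682, 2221, 1325 and 1973 in the labelled group corresponded to 117 ± 25.3 and 137 ± 31.8 CPM (SD, n = 4). The labelled group held both the highest library, replicate 1, and the lowest, replicate 3. Mylk had a log2 fold change of 0.23 (SE 0.20, adjusted p = 0.42 in edgeR's test) and an approximate 95% interval from -0.17 to 0.62.

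**Figure D2:**
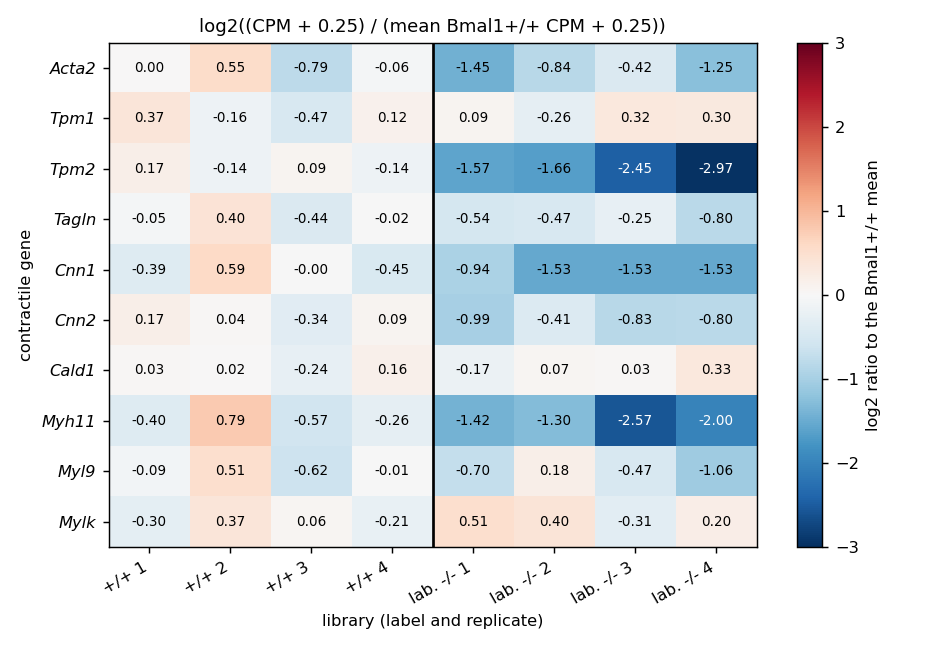
Log2 ratio of each library's CPM to the Bmal1+/+ mean, with 0.25 CPM added to both, for the 10 contractile genes (rows) in the 8 libraries (columns, label and replicate number), so that blue is below and red above that mean. Acta2, Tpm2, Tagln, Cnn1, Cnn2 and Myh11 are below the mean in all 4 libraries labelled Bmal1-/-, and in Bmal1+/+ replicate 3 is the lowest of its group for 7 genes.

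The summed level of the 10 genes hid these differences. Together they took 0.0332 to 0.0395% of the counts in Bmal1+/+ libraries and 0.0340 to 0.0416% in the labelled ones. Mylk and Cald1 alone made up 86.0 to 92.3% of that sum. The remaining 8 genes summed to 481 to 822 counts in Bmal1+/+ and 445 to 516 in the labelled group, and these ranges overlapped through Bmal1+/+ replicate 3, which held 481. Per 100 counts on the 35 stromal markers the same 8 genes held 2.95 to 3.93 counts in Bmal1+/+ and 3.99 to 5.8 in the labelled group, the opposite order and without overlap. Macrophage and leukocyte markers, a large part of that marker sum, took 0.0403 to 0.0526% of all counts in Bmal1+/+. In the labelled group they took 0.0189 to 0.0343%, and their median log2 fold change of -1.18 was the lowest of the lists summed. How much of the reversed order comes from them was not tested. Tpm1 was the most counted of the 8 in every library.

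Levels were set between genes only per length, from the FPKM values of the authors. In Bmal1+/+ the order was Mylk at 8.72 ± 1.79 and Cald1 at 8.54 ± 0.847 FPKM, then Cnn2 at 2.39 ± 0.355, Tagln at 2.11 ± 0.495, Tpm1 at 1.21 ± 0.307, Acta2 at 0.8 ± 0.317, Myl9 at 0.787 ± 0.274, Tpm2 at 0.683 ± 0.0939, Myh11 at 0.327 ± 0.169 and Cnn1 at 0.120 ± 0.0634 (SD, n = 4). Neighbours in that order overlapped, except between Cald1 and Cnn2, between Tpm2 and Myh11 and between Myh11 and Cnn1. Among the libraries labelled Bmal1-/- the same 2 genes led, at 10.4 ± 2.56 FPKM for Mylk and 9.14 ± 1.13 for Cald1, and the last 3 places were again Tpm2 at 0.134 ± 0.0776, Myh11 at 0.0808 ± 0.0417 and Cnn1 at 0.00828 ± 0.0166. Tpm2 overlapped Myl9 in Bmal1+/+, where its lowest and highest libraries were at 0.602 and 0.784 FPKM, and lay wholly under it in the labelled group, at 0.0477 to 0.207 against 0.315 to 0.946 FPKM. The order depends on the length used: the FPKM values imply 23755 bases for Cald1 and 16538 for Tpm1, where the merged exons of the GENCODE annotation hold 12041 and 6485, and with the latter Cald1 led, followed by Mylk and Tpm1.

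Within their families, which no library scaling can alter, Myh11, Cnn1 and, as given above, Tpm2 took smaller shares in the labelled group. Tpm1 had the higher mean share there, at 23.9% against 17.9%, with ranges that met. A share also moves with the other genes of its family, so it is not by itself a change of the named gene. Tpm1 itself had a log2 fold change of 0.13 that did not pass, while Tpm4 stood at 26.6 CPM in Bmal1+/+ and 13.5 CPM in the labelled group. Myh10, in the family of Myh11, stood at 8.90 and 16.5 CPM. Myh11 made up 0.890 to 2.64% of the counts on Myh9, Myh10, Myh11 and Myh14 in Bmal1+/+ and 0.224 to 0.648% in the labelled group, with no overlap. Cnn1 made up 0.349 to 1.10% and 0 to 0.170% of the calponin counts, also without overlap. For Cnn2 the shares of 6.76 to 9.73% and 4.68 to 8.18% overlapped, as did those of Acta2 among the counts on Acta2, Actg2, Actb and Actg1, at 0.310 to 0.872% and 0.143 to 0.322%. These shares are of fragments and not of molecules, since lengths differ, and were not tested. Shares in other gene families were not computed, so no background stands beside those that did not overlap. In CPM, 16.8% of all tested genes did not overlap with the labelled group lower and 16.7% with it higher.

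**Figure D3:**
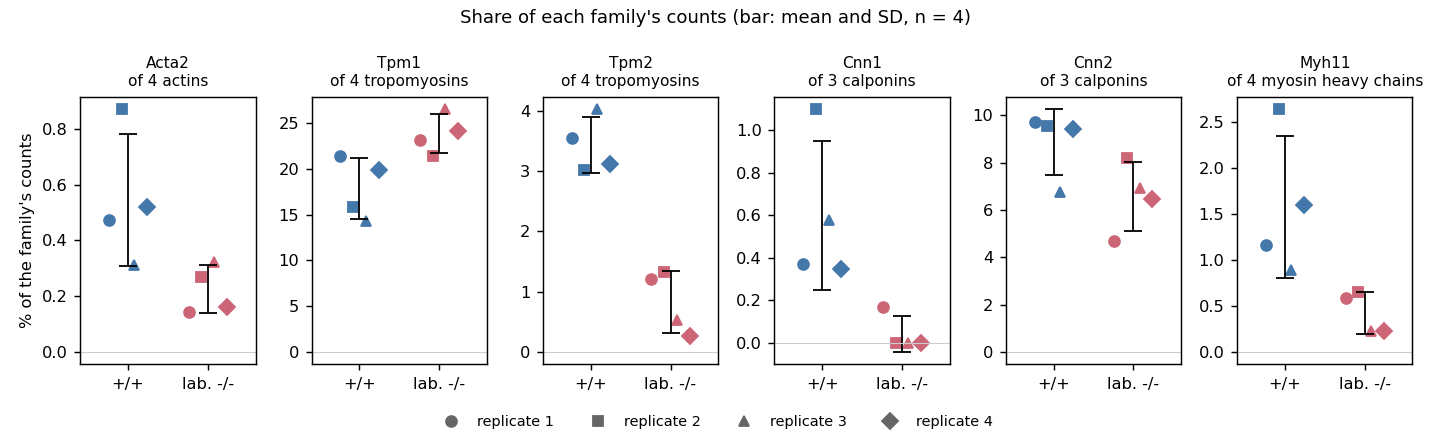
Percentage of the counts of a gene family that fell on each named member, for 4 actins, 4 tropomyosins, 3 calponins and 4 class II myosin heavy chains; markers are replicates and the bar is the mean with SD (n = 4 per label). Tpm2, Cnn1 and Myh11 are apart between labels, and Acta2, Tpm1 and Cnn2 meet or overlap.

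Relative to the summed stromal markers, of which macrophage genes were a large part, the picture changed for some of the genes. When each library was scaled to the summed counts of the 35 fibroblast, pericyte, endothelial and macrophage markers, the median log2 fold change of all genes rose from 0.02 to 0.73, and edgeR's test called 4.95% of genes lower and 64.0% higher. Tpm2, at -1.67 (SE 0.38, adjusted p = 0.0023), and Myh11, at -1.35 (SE 0.44, adjusted p = 0.016), were still lower under this scaling. Cnn2 was no longer called at -0.06 (adjusted p = 0.81), and Acta2 stood at -0.40 (adjusted p = 0.40). Tagln and Myl9 turned to 0.20 each without passing (adjusted p = 0.51 and 0.66). Cald1 at 0.78, Tpm1 at 0.85 and Mylk at 0.90 were called higher, close to the shift of all genes. Under both scalings, therefore, 2 of the 9 tested genes were called lower.

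**Figure D4:**
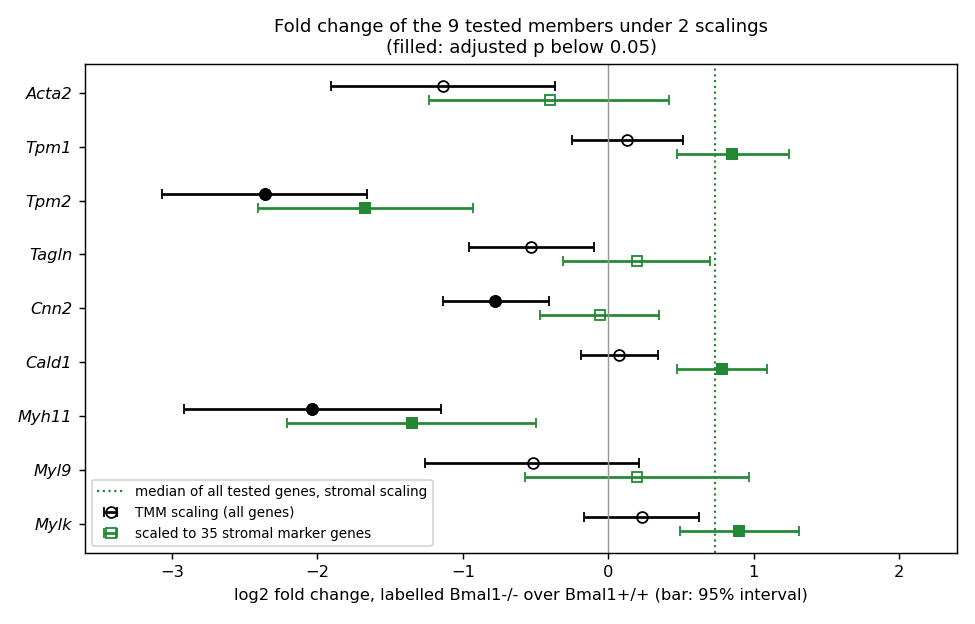
Log2 fold change of the 9 tested contractile genes, libraries labelled Bmal1-/- over Bmal1+/+, with approximate 95% intervals, under TMM scaling (black circles) and under scaling to 35 stromal markers (green squares). Filled symbols have adjusted p below 0.05 and the dotted line is the median of all genes under the second scaling. Tpm2 and Myh11 are filled and below 0 under both.

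Other genes of the contractile machinery were read from 4 lists with 49 genes. Of the 42 tested, 11 were lower, 3 higher and 28 did not pass, with a median log2 fold change of -0.17, beside 16.2% lower and 14.9% higher over all genes. Scaled to stromal markers, 1 was lower and 25 were higher, beside 4.95% and 64.0% of all genes. The directions below therefore hold for TMM scaling unless the other is named. On the thin filament side 8 of 15 tested genes were lower and 1 was higher under TMM scaling, against 0 lower and 7 higher under the stromal scaling. Among these were Actg1, a cytoplasmic gamma-actin, at 91.5 ± 28.5 against 45.9 ± 7.63 CPM (SD, n = 4; log2 fold change -1.0, edgeR adjusted p = 0.0075), and Tpm4, a non-muscle tropomyosin, at 26.6 ± 2.00 against 13.5 ± 0.818 CPM (-0.97, adjusted p = 1.3e-04). Under the stromal scaling both stood at -0.26 without passing (adjusted p = 0.36 and 0.16). Flna, the actin crosslinker filamin A, stood at -0.97 (adjusted p = 0.0053) and at -0.30 under the stromal scaling (adjusted p = 0.11), and Smtn, Actn1, Csrp1 and Zyx were lower under TMM scaling only. Actn4, a non-muscle alpha-actinin, was higher under both, at 0.45 (adjusted p = 0.0083) and 1.16 (adjusted p = 2.3e-04). Actb, the cytoplasmic beta-actin often used as a reference, had a log2 fold change of 0.41 that did not pass (adjusted p = 0.078) and of 1.12 under the stromal scaling (adjusted p = 5.9e-04).

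On the myosin side, 0 of 5 tested chains were lower (1 at an unadjusted p below 0.05 in edgeR's test, Myl12a) and 1 was higher, Myh10, a non-muscle myosin II heavy chain, at 8.90 ± 0.855 against 16.5 ± 2.20 CPM (SD, n = 4; log2 fold change 0.89, edgeR adjusted p = 0.0011). Myh10 and Myh11 had opposite directions under both scalings (Myh10 at 1.59 under the stromal one, adjusted p = 1.8e-05). Among 14 genes that control light chain phosphorylation, 1 was lower and 1 higher, against 0 lower and 10 higher under the stromal scaling. Both lists are to be read beside all genes, of which 16.2% were lower and 14.9% higher under TMM scaling. Under the stromal scaling these shares were 4.95% and 64.0%. Rock2, a kinase that keeps the light chain phosphorylated, was lower at -0.83 (adjusted p = 5.7e-04), a call and most of a fold that were lost under the stromal scaling, at -0.12 (adjusted p = 0.46). Ppp1r14a, which codes for CPI-17, an inhibitor of myosin phosphatase, was higher at 1.47 (adjusted p = 0.011), from 1.18 ± 0.266 to 3.29 ± 1.41 CPM (SD, n = 4), with groups that met at 1.56 CPM, and at 2.16 under the stromal scaling (adjusted p = 3.5e-04).

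Of the SRF and myocardin family regulators, 2 of 8 tested were lower, beside 16.2% of all genes. Under the stromal scaling 1 was lower and 4 were higher, beside 4.95% and 64.0% of all genes. Klf4, a zinc finger factor that represses smooth muscle genes, fell from 9.48 ± 1.91 to 0.940 ± 0.16 CPM (SD, n = 4; log2 fold change -3.32, edgeR adjusted p = 9e-06), and was lower under the stromal scaling as well, at -2.64 (adjusted p = 1.3e-05). Elk3, an ETS factor that competes for SRF, was lower at -0.65 (adjusted p = 0.033) under TMM scaling and stood at 0.05 (adjusted p = 0.81) under the other. Srf itself was at 16.0 ± 1.91 and 14.5 ± 0.804 CPM (-0.15, adjusted p = 0.38) and was called higher under the stromal scaling at 0.56 (adjusted p = 0.011), and Myocd, the myocardin gene that drives the smooth muscle program, had 0 counts in all 8 libraries, where 3 counts in a library are the limit that a count of 0 allows.

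**Figure D5:**
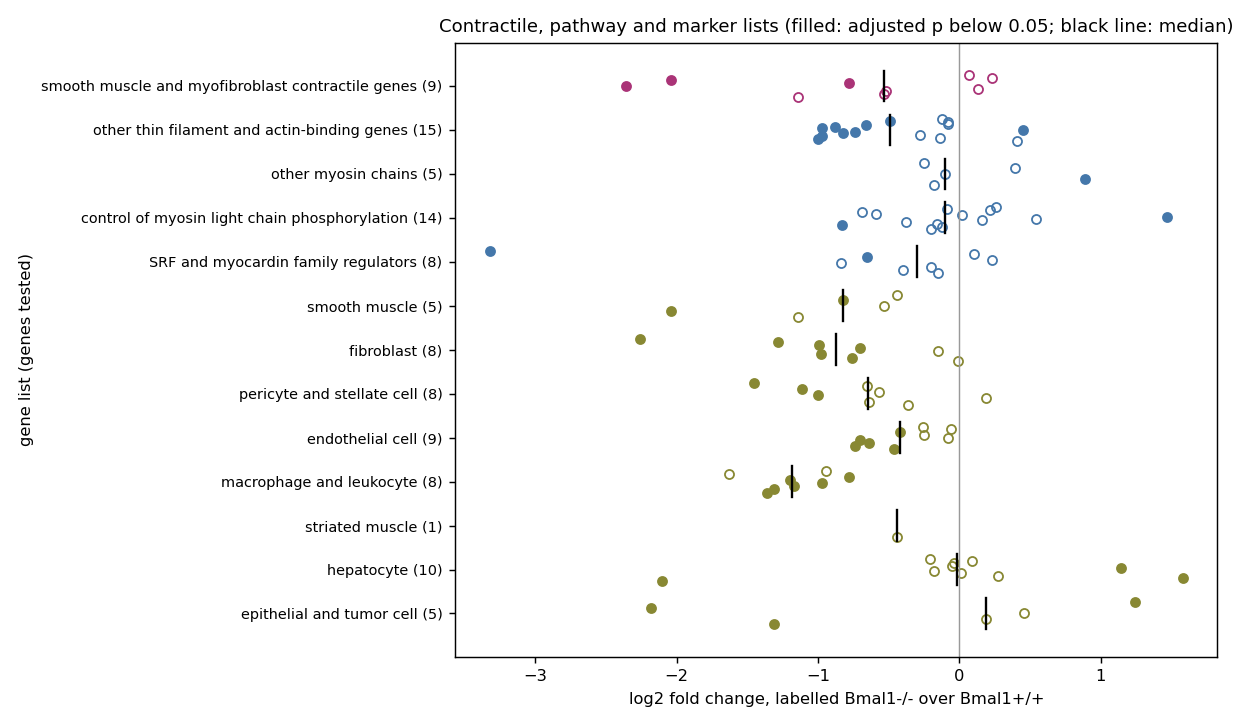
Log2 fold change of each tested gene, libraries labelled Bmal1-/- over Bmal1+/+, in the contractile list, 4 pathway lists and 8 marker lists (number tested in brackets); filled points have adjusted p below 0.05 in edgeR's test and the black line is the median. The contractile genes spread from -2.36 to 0.23, and the fibroblast and macrophage medians lie at -0.87 and -1.18.

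Cell type markers differed between the groups too. Counts in this paragraph are to be read against the 16.2% of all genes called lower and the 14.9% called higher under TMM scaling. The smooth muscle list summed to 16.7 to 30.7 CPM in Bmal1+/+ and 10.2 to 14.7 CPM in the labelled group, but only 5 of its 10 genes could be tested, of which Myh11 and Smtn were lower. This list shares Acta2, Myh11, Cnn1 and Tagln with the contractile genes and Smtn with the thin filament list, so it is not separate evidence. Des, its only tested gene outside those lists, stood at -0.44 without passing (edgeR adjusted p = 0.13). Fibroblast markers were lower for 6 of 8 tested (list sums of 141 to 222 and 102 to 107 CPM), led by Postn, which codes for periostin, at -2.26 (edgeR adjusted p = 2.9e-04), and Thy1 at -1.28 (adjusted p = 0.0086). Pericyte and stellate cell markers were lower for 3 of 8 (139 to 203 and 75.9 to 119 CPM), with Hgf at -1.45 (adjusted p = 0.0064) and Lrat, the retinol-storing enzyme of stellate cells, at -1.11 (adjusted p = 0.0033). Endothelial markers were lower for 5 of 9, led by Cdh5 at -0.74 (adjusted p = 0.0050) and Tek at -0.70 (adjusted p = 0.016). Macrophage and leukocyte markers were lower for 6 of 8, led by Ptprc at -1.36 (adjusted p = 0.0063) and Adgre1 at -1.31 (adjusted p = 0.0014). In these 5 lists edgeR's test called 0 genes higher, also at an unadjusted p below 0.05.

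Markers of skeletal and cardiac muscle, which also make tropomyosins, had few counts. Of 13 striated markers 6, Acta1, Myh1, Myh2, Myh4, Tnnt3 and Tnnc2, had 0 counts in all 8 libraries, and only Des, shared with smooth muscle, could be tested. Mylpf summed to 36 counts in Bmal1+/+ and 33 in the labelled group, more than the 30 and 2 of Cnn1. Ttn summed to 7 and 14 counts and Actc1 to 0 and 8, while Ckm, Myh6 and Myh7 had at most 2 in any library. Among 10 hepatocyte markers Alb was lower at -2.10 (edgeR adjusted p = 6.8e-05), and Apoa1 at 1.58 (adjusted p = 0.0011) and Fgb at 1.14 (adjusted p = 0.027) were higher. Fgb was at 12400 CPM in replicate 4 labelled Bmal1-/-, with the rest of that group at 4170 to 5120 CPM and Bmal1+/+ at 2760 to 3490 CPM. The other 7 hepatocyte markers did not pass, and over all genes 16.2% were called lower and 14.9% higher. Of 5 tested epithelial markers, Krt19 at -2.18 (adjusted p = 0.022) and Epcam at -1.31 (adjusted p just under 0.05) were lower and Cdh1 at 1.24 (adjusted p = 0.0016) was higher. What these marker differences contribute to the contractile gene values was not tested.

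Within groups, Bmal1+/+ replicate 2 was the highest of its group for 6 of the 10 genes, namely Acta2, Tagln, Myl9, Cnn1, Myh11 and Mylk. Replicate 3 was the lowest for 7, the exceptions being Tpm2, Cnn1 and Mylk. In the labelled group no library led for more than 3 genes. After the mean of each group was removed and each gene scaled to unit SD, the mean pattern of the 9 tested genes was 0.14, 0.68, -0.92 and 0.10 in Bmal1+/+ and -0.09, 0.53, -0.13 and -0.31 in the labelled libraries. Myl9 was closest to it among the contractile genes (Pearson r = 0.910 over 8 libraries), followed by Tagln at 0.794, Cnn2 at 0.785, Acta2 at 0.741 and Myh11 at 0.688. Tpm2, the gene with the largest group difference, had an r of only 0.227, and Mylk, Tpm1 and Cald1 stood at 0.249, 0.109 and 0.330. Among pairs, Acta2 and Tagln (r = 0.90) and Myh11 and Mylk (r = 0.87) varied most alike within groups, and Tpm2 and Cald1 most oppositely (r = -0.70). The 5 genes of all 14353 most like the pattern were Cs (citrate synthase), at r = 0.971, Traf5 at 0.965, Gramd4 at 0.964, Taldo1 (transaldolase) at 0.962 and Tefm at 0.957. These r share libraries, depth and, for the contractile genes, the pattern they helped to form, and describe likeness over 8 libraries only.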

How the data were processed

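Stromal vascular fraction RNA of MC38 tumors was sequenced in 4 Bmal1+/+ and 4 Bmal1-/- samples, grouped by genotype label. The authors aligned read pairs with HISAT2 (GRCm38) and deposited StringTie fragment counts per gene, not normalized. The submitters' processing notes name TopHat2 2.0.6 and CASAVA 1.8 instead. The authors also deposited FPKM, which equalled the count per library total and 1 fixed length per gene within 1% for 100% of 11442 genes. Symbols and coordinates came from GENCODE vM21 (99.4% of rows matched). Nothing states that samples were separate animals, so p-values measure the spread between samples, which may be technical.

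Counts were filtered (filterByExpr), TMM-normalized and tested in R 4.3.3 with edgeR 4.0.16 (quasi-likelihood, prior count 0.125, common dispersion 0.0506), with Benjamini-Hochberg adjustment over 14353 genes. SE is the fold change over the square root of F. The 95% intervals of fold changes are approximate, since they take the SE as normal and are narrower than the F test would give. Figures used Python 3.11.15 and matplotlib 3.10.9. Tested on simulated data with 200 of 14353 genes changed, the test recovered 68% of 2-fold and 99% of 4-fold changes, and 4.57% of calls were false. Every simulated gene had the same dispersion. In the data the spread differed between genes and far more genes were called, so these rates need not hold for the contractile genes. Of the 10 genes, 0 windows of 75 transcript bases occurred in another gene. No 2 libraries were duplicates (chi-square per degree of freedom at least 20). Replicate 4 labelled Bmal1-/- was the least like its group, at 144.2 to 167 against each of the others, which stood at 20 to 44.6 among themselves.

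Alternatives were DESeq2 1.42.0, the likelihood ratio test, limma 3.58.1 (voom), 4 other scalings, 2 filters, a prior count of 2, the replicate block and leaving out each library. The genes, lists and tests were chosen with earlier results of these data known. Named are the 10 genes, Arntl, from each list up to 2 genes called lower and 2 higher with the largest fold change plus those at 0 in all libraries, and the 5 most like the pattern. Others (Flna, Actb, Srf, Myl12a, Xist, Des, Mylpf, Ttn, Actc1, Ckm, Myh6, Myh7, and those given by name only) were chosen after their values were seen. Myl12b matched 2 identifiers and was left out. The result of 1 gene of the thin filament list is not reported here.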

Additional observations from a re-analysis of the deposited data

Results flagged for a closer look

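Among 20 groups of 4 libraries (10 genes, 2 labels), 2 values stood apart from the rest of their group by Dixon's criterion, where chance alone flags about 1 in 20 groups. Myh11 in Bmal1+/+ replicate 2 was at 5.24 CPM, with the other libraries of the group at 1.88 to 2.39 CPM. Cnn1 in replicate 1 labelled Bmal1-/- was at 0.1247 CPM, from 2 counts, under the floor of 3, with the others at 0. With 3 libraries at 0 any count above 0 meets this criterion, so the value tells nothing about that library. No cause was tested for the Myh11 value.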

How the results depend on the processing

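Tpm2 and Myh11 were called lower in all 18 settings in which they passed the filter, and Cnn2 in 18 of 19. Scaling to stromal markers moved the most: 3 contractile genes were then called higher and 2 lower, pathway genes were 1 lower and 25 higher, and all genes 711 lower and 9193 higher, since this scaling lifts the median of all genes to 0.73. Under it Tagln (0.198) and Myl9 (0.200) changed sign without passing. Requiring 10 counts in every library left 6 contractile genes and 1 lower call (Cnn2), since Acta2, Tpm2, Cnn1 and Myh11 were removed. Leaving out single libraries gave 3 to 5 lower calls, with Acta2 and Tagln joining without Bmal1+/+ replicate 3 and Acta2 without replicate 3 labelled Bmal1-/-. Over these omissions the log2 fold change of Cald1 ranged from -0.0228 (without replicate 4 labelled Bmal1-/-) to 0.144, and the stromal scaling gave 0.78. DESeq2 and the likelihood ratio test also called Acta2 (adjusted p = 0.032 and 0.021). Same-numbered libraries did not deviate together (r from -0.064 to 0.063), and with the replicate block 3 contractile genes were again called lower. Acta2, Myl9, Tpm2, Cnn1 and Myh11 had fewer than 50 counts per library on average, which limits their precision.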
